A study of Mus musculus with 8 samples.

Results

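The genes described here are 38 genes of natural killer (NK) cells, which were listed by name and matched to the Entrez identifiers of a count table of 27179 genes. They comprised 23 lectin-like receptor genes of the Klr families on one stretch of chromosome 6, the receptor genes Klrg1 and Ncr1, 2 transcription factor genes, 3 cytokine receptor genes, 5 cytotoxic effector genes, 2 chemokine genes and the kinase gene Txk, and all 38 were found. They had been selected on their RNA levels, chosen by the difference between Erg-deficient and control pre-proB cells in these libraries, in which NK markers were higher without Erg, so their levels by genotype are a description, from which nothing is read, and no p-value of a member is given for that contrast.

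RNA was sequenced from sorted mouse bone marrow cells in 4 groups of 2 libraries. Control cells came from young adult Erg fl/fl mice, whose Erg alleles both carry loxP sites and which have no Cre allele, and were sorted at 3 steps of early B-cell development, in order pre-proB, proB and preB. Erg-deficient pre-proB cells came from Rag1Cre T/+;Erg Δ/Δ animals, where Cre made from the Rag1 locus removes Erg, the gene of an ETS family transcription factor, from the common lymphoid progenitor stage onward. The groups therefore differed in the Cre allele as well as in Erg, and cells were sorted independently from 2 mice of each genotype. All gates took B220+ IgM- IgD- cells without NK1.1 or CD11c, and the pre-proB gate took the CD43+ CD24- fraction. NK1.1, a surface marker used to remove NK cells, is the product of the member Klrb1c.

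NK cells are innate lymphocytes that kill cells by releasing perforin and granzymes. Whether they do so depends on the balance of activating and inhibitory receptors, most of which in the mouse are lectin-like proteins encoded side by side in the NK gene complex. T-bet and Eomes direct their differentiation, and interleukin 15, received through the receptor chain encoded by Il2rb, keeps them alive.

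Library totals ranged from 15565381 to 18457632 counts. Levels are counts scaled to library size (CPM), corrected by TMM factors of 0.952 to 1.05, and a count of 3 in a library corresponded to between 0.163 and 0.193 CPM. Erg, the deleted gene, stood at 69.1 and 25.3 CPM in the control pre-proB libraries and at 2.50 and 2.58 CPM in the Erg-deficient ones. Marker genes of other cell types were expressed in the pre-proB libraries of both genotypes. The plasmacytoid dendritic-like list of 12 markers summed to 12938 and 13900 CPM in control and to 15076 and 15077 CPM in Erg-deficient libraries, with Siglech at 3953 and 4507 CPM in the latter. The B-like list of 12 markers summed to 2692 and 1464 CPM in control and to 766 and 891 CPM in Erg-deficient libraries. In bulk samples fewer cells of a type and less RNA per cell cannot be told apart.

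Of the 38 members, 25 lie on chromosome 6 and the others on 9 further chromosomes. The 23 Klr genes other than Klrg1 occupy 2638 kb, chr6:128609227-131247716 in GRCm38.p6, and Klrg1 starts at position 122270596 of the same chromosome. RefSeq promoters, taken as 250 bases before to 50 bases after the start of a gene, were held for 33 members. The following 4 are shown because their genes represent the activating receptor Ncr1, the activating receptor Klrk1, the member whose stage pattern ran opposite to the rest (Klra1), and a Ly49 receptor with little RNA in control cells (Klra4). Capitals mark TGTGGT or its reverse complement ACCACA, the core bound by Runx factors.

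Ncr1, chr7:4337465-4337764, plus strand: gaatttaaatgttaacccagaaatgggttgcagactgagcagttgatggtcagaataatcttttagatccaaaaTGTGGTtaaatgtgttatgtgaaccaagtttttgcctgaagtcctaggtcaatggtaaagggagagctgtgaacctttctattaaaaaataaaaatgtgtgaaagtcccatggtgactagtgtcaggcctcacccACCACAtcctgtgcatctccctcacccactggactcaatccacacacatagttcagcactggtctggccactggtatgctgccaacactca

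Klrk1, chr6:129623815-129624114, minus strand: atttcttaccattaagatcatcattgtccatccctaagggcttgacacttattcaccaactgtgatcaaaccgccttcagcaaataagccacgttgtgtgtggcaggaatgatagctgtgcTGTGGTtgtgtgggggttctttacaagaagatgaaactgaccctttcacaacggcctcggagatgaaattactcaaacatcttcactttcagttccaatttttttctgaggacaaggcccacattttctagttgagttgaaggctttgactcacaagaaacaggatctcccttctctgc

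Klra1, chr6:130386825-130387124, minus strand: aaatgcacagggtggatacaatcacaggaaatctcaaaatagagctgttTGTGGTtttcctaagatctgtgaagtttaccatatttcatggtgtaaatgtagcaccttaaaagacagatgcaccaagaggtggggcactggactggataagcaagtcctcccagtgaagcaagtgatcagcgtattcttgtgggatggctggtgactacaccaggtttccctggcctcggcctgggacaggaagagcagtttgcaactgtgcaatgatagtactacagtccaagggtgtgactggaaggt

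Klra4, chr6:130067222-130067521, minus strand: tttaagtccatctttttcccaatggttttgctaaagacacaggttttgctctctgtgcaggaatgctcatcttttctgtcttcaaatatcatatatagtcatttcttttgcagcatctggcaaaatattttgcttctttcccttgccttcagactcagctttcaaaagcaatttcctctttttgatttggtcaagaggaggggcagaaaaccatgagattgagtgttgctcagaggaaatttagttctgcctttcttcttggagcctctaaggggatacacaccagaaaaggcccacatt

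This core occurred 2 times in the Ncr1 window, 1 time in each of the windows of Klrk1 and Klra1, and not in that of Klra4. It was present in the windows of 16 of 33 members, or 48.5%, and in 18.9% of the 27025 genes with a promoter. It was 1 of 8 motifs searched on both strands and was picked for display after their shares had been seen. The T-box motifs GGTGTGA and GGTGTNA, the second of which includes the first, were present in 9.09% and 15.2% of members and in 4.6% and 11.6% of genes. The ETS motifs CCGGAAG, ACAGGAAG and AGGAAGT were present in 0.0%, 3.03% and 27.3% of members and in 9.93%, 4.06% and 10.7% of genes. Their common part GGAAG was present in 51.5% of members and 73.9% of genes, and the E-box CACCTG in 24.2% and 22.6%. These shares are a description of letters in the windows. The Klr genes are duplicates of one another, with up to 86.05% identity between 2 Ly49 windows, so the windows are not independent, and RefSeq starts need not be those used in these cells.

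In pre-proB cells Klra17 and Klrd1 were abundant in both genotypes, whereas most other members were low in control cells and higher in both Erg-deficient libraries. Both Erg-deficient libraries stood above both control libraries in 33 of 38 members, 31 of them among the 35 that passed the filter of 0.5 CPM in 2 libraries. Of all 13005 genes tested, 23.7% did so. By edgeR 10 members were called higher and 0 lower, where 0.215% of all genes were called higher and 0.946% lower. An unadjusted p below 0.05 was found for 29 members and for 1624 of the 13005 genes. Because the members were chosen for this difference, nothing is read from these counts, nor from later statements that the genotypes of a member did not overlap. In the same contrast the number of members called was 0 without Erg-deficient replicate 2, 3 without Erg-deficient replicate 1, 9 without control replicate 1 and 21 without control replicate 2.

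**Figure D1:**
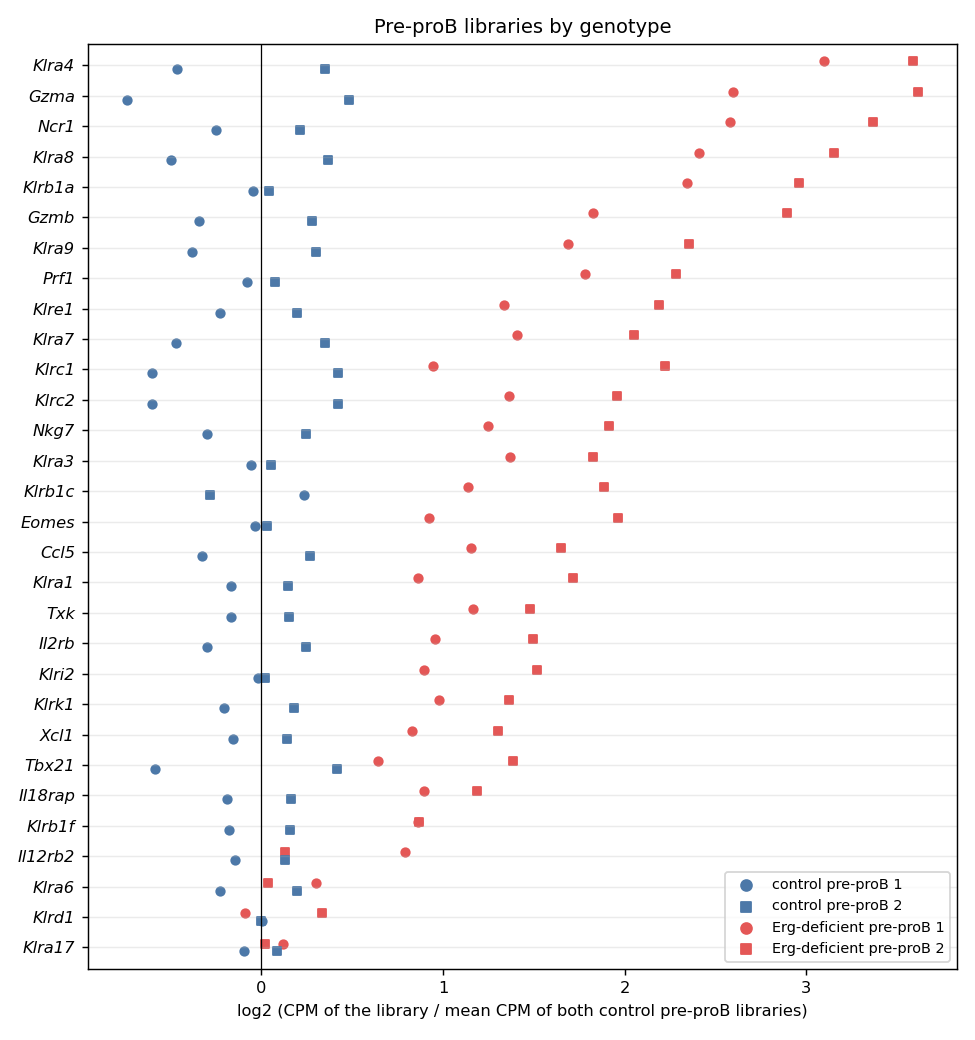
Level of each member with a mean of at least 1 CPM in the 4 pre-proB libraries, as log2 of the ratio to the mean of both control libraries; blue points are control and red points Erg-deficient libraries, circles replicate 1 and squares replicate 2. Red points lie to the right of blue points in all genes shown except Il12rb2, Klra6, Klrd1 and Klra17.

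The activating Ly49 receptors were among the members with the highest ratio between genotypes. Klra4, which encodes Ly49D, stood at 0.898 and 1.58 CPM in control pre-proB libraries, 0.0546 and 0.103 CPM in proB, 0.116 and 0.113 CPM in preB, and 10.6 and 14.9 CPM in Erg-deficient pre-proB libraries, a ratio of 10.3 between the genotype means. Klra8, which encodes Ly49H, stood at 1.60 and 2.92 CPM in control pre-proB and at 12.0 and 20.1 CPM in Erg-deficient libraries, a ratio of 7.09. For both genes the genotypes did not overlap, and proB and preB libraries stayed at or below 0.523 CPM. Of the 100-base windows of the Klra8 transcripts 14.4% were shared with another gene, mainly the pseudogene Klra14-ps, so its counts may include reads of that gene.

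Among the other Ly49 genes, most of which encode inhibitory receptors for class I molecules, the ratios between genotype means ranged from 1.04 to 4.17. Klra7, which encodes Ly49G, stood at 3.79 and 6.69 CPM in control and 13.9 and 21.7 CPM in Erg-deficient pre-proB libraries, a ratio of 3.40. Klra9, encoding Ly49I, stood at 0.834 and 1.34 CPM in control and 3.50 and 5.55 CPM in Erg-deficient libraries, and Klra3, encoding Ly49C, at 1.35 and 1.46 CPM against 3.62 and 4.97 CPM. In these 3 genes the genotypes did not overlap, where 23.7% of all genes had both Erg-deficient libraries above both control libraries. Klra6, which encodes Ly49F, did overlap, with 1.99 and 2.67 CPM in control and 2.87 and 2.39 CPM in Erg-deficient libraries. The rare members Klra5 and Klra10 had between 2 and 9 counts in each control pre-proB library and between 8 and 20 in each Erg-deficient one, and Klra2 had 0 and 7 counts in control and 5 and 2 in Erg-deficient libraries.

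Klra17 was the abundant member of its family. It encodes Ly49Q, a receptor known from plasmacytoid dendritic cells, and stood at 165 and 187 CPM in control and 191 and 178 CPM in Erg-deficient pre-proB libraries. It held 91.3% of the summed Ly49 CPM in control and 73.7% in Erg-deficient pre-proB cells. The 8 Ly49 genes other than Klra1, Klra2 and Klra17 summed to 10.97 and 17.5 CPM in control and to 47.5 and 71.97 CPM in Erg-deficient libraries.

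Klra1, which encodes the inhibitory receptor Ly49A, had another distribution over the stages. It stood at 2.05 and 2.55 CPM in control pre-proB, 14.8 and 14.5 CPM in proB, 15.1 and 17.5 CPM in preB, and 4.19 and 7.55 CPM in Erg-deficient pre-proB libraries. It rose from pre-proB to proB cells by 2.69 ± 0.17 on the log2 scale (SE, edgeR quasi-likelihood test, adjusted p = 1.15e-06), while preB and proB cells differed by 0.17 ± 0.13 (adjusted p = 0.307). Klra1 supplied 80.3% of the summed Ly49 CPM in proB and 88.5% in preB cells. None of its transcript windows was shared with another gene.

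The NKR-P1 receptors, several of which bind Clr proteins encoded in the same complex, had ratios of 1.82 to 10.5. Klrb1c, the gene of NK1.1, stood at 11.1 and 7.78 CPM in control pre-proB, 4.21 and 4.17 CPM in proB, 2.09 and 2.42 CPM in preB, and 20.8 and 34.9 CPM in Erg-deficient pre-proB libraries. Its RNA was thus present in all 8 libraries of cells gated as lacking NK1.1 protein, and the part that NK1.1-positive cells had in it was not tested. Klrb1f stood at 8.28 and 10.5 CPM in control and 17.1 and 17.1 CPM in Erg-deficient libraries. Klrb1a stood at 0.513 and 0.547 CPM against 2.69 and 4.13 CPM, and the inhibitory Klrb1b had 4 and 4 counts in control and 32 and 50 in Erg-deficient libraries. Of the windows of Klrb1b 22.3%, and of those of Klrb1c 10.8%, were shared with another gene, mainly Gm44511.

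CD94, encoded by Klrd1, pairs with NKG2 proteins to bind the class Ib molecule Qa-1. Klrd1 stood at 174 and 174 CPM in control and 164 and 220 CPM in Erg-deficient pre-proB libraries, which overlapped. Its partner genes were far lower. Klrc1, encoding the inhibitory NKG2A, stood at 1.28 and 2.61 CPM in control and 3.75 and 9.10 CPM in Erg-deficient libraries, and Klrc2, encoding NKG2C, at 0.898 and 1.82 CPM against 3.50 and 5.29 CPM. Klrc3 had 5 and 6 counts in control and 16 and 41 in Erg-deficient libraries. Between 7.09% and 16.05% of the windows of these 3 genes were shared, largely among themselves, so reads may have been split between them. Klrk1, encoding the activating receptor NKG2D, stood at 18.2 and 23.8 CPM in control and 41.3 and 54.0 CPM in Erg-deficient libraries, a ratio of 2.27.

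Klre1 and Klri2 encode lectin-like chains that pair with each other. Klri2 stood at 11.6 and 11.9 CPM in control and 21.8 and 33.5 CPM in Erg-deficient pre-proB libraries, and Klre1 at 3.53 and 4.74 CPM against 10.4 and 18.8 CPM. Klri1, the other partner of Klre1, had 6 and 6 counts against 10 and 11. Klrg1, a receptor of mature NK and effector T cells, had 1 and 3 counts in control and 7 and 9 in Erg-deficient libraries. Ncr1, which encodes NKp46 and is the member most used to define NK cells, stood at 2.12 and 2.92 CPM in control and 15.1 and 26.0 CPM in Erg-deficient libraries, a ratio of 8.16, and at or below 0.407 CPM in proB and preB libraries.

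Both factors were present in control pre-proB cells and higher in the Erg-deficient libraries. Eomes stood at 5.01 and 5.23 CPM in control and 9.68 and 19.9 CPM in Erg-deficient libraries. Tbx21, which encodes T-bet, stood at 1.73 and 3.46 CPM against 4.06 and 6.78 CPM. The genotypes did not overlap for either gene, though the lower Erg-deficient library of Tbx21 lay close to the higher control library. Txk, a Tec family kinase, stood at 2.82 and 3.53 CPM against 7.12 and 8.84 CPM.

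The cytokine receptor genes had ratios of 1.41 to 2.38. Il2rb stood at 21.5 and 31.4 CPM in control and 51.3 and 74.6 CPM in Erg-deficient pre-proB libraries, and Il18rap, a chain of the interleukin 18 receptor, at 6.80 and 8.69 CPM against 14.4 and 17.6 CPM. Il12rb2, a chain of the interleukin 12 receptor, stood at 31.0 and 37.5 CPM in control and 59.3 and 37.4 CPM in Erg-deficient libraries. Il12rb2 overlapped between genotypes, with Erg-deficient replicate 2 at the level of control replicate 2.

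The cytotoxic effectors were low in control cells. Gzma, encoding granzyme A, stood at 1.80 and 4.19 CPM in control and 18.1 and 36.7 CPM in Erg-deficient libraries, a ratio of 9.15. Gzmb, encoding granzyme B, stood at 0.513 and 0.790 CPM against 2.31 and 4.84 CPM, and Prf1, encoding perforin, at 2.18 and 2.43 CPM against 7.94 and 11.2 CPM. Nkg7, a granule membrane protein gene, stood at 6.03 and 8.81 CPM against 17.6 and 28.0 CPM. Fasl, encoding the ligand of the death receptor Fas, had 5 and 9 counts in control and 24 and 49 in Erg-deficient libraries. None of the 5 effectors overlapped between the genotypes. Both Erg-deficient libraries stood above both control libraries in 23.7% of all genes, and the members were chosen for this difference. Of the chemokines, Ccl5 stood at 12.4 and 18.8 CPM against 34.8 and 48.9 CPM, and Xcl1, which attracts cross-presenting dendritic cells, at 1.92 and 2.37 CPM against 3.81 and 5.29 CPM.

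The 2 Erg-deficient libraries were not alike in these genes. Replicate 2 stood above replicate 1 in 34 of 38 members, with a median ratio of 1.54, where 51.7% of all tested genes were higher in replicate 2 and their median ratio was 1.01. The control pre-proB libraries differed in the same direction, with replicate 2 above replicate 1 in 33 members and a median ratio of 1.34, against 58.3% and 1.02 for all genes. The members without Klra17 and Klrd1 summed to 166 and 216 CPM in control and to 425 and 593 CPM in Erg-deficient libraries.

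Compared per exon length, Klra17 and Klrd1 led in Erg-deficient pre-proB cells with 155 ± 7.47 and 150 ± 30.9 FPKM (SD, n = 2), which did not differ beyond their spread. Ccl5 followed at 43.6 ± 10.4 FPKM, and Gzma at 27.2 ± 13.03 FPKM and Nkg7 at 24.96 ± 8.04 FPKM lay within their spread of each other. Il2rb, Klra7, Klra8, Ncr1 and Il12rb2 lay between 12.7 and 14.7 FPKM with SDs of 3.85 to 5.03, and their order was not resolved. In control pre-proB cells Klra17 stood at 148 ± 13.03 FPKM and Klrd1 at 136 ± 0.496 FPKM, which lay within their spread of each other, and Ccl5 at 16.3 ± 4.66 FPKM. Il12rb2 at 9.03 ± 1.21 FPKM and Nkg7 at 8.12 ± 2.15 FPKM followed, in an order that was not resolved. Gzma was at 2.98 ± 1.68 FPKM there. The lengths are of all annotated exons of a gene joined, which lowers the FPKM of genes with long or rare exons.

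**Figure D2:**
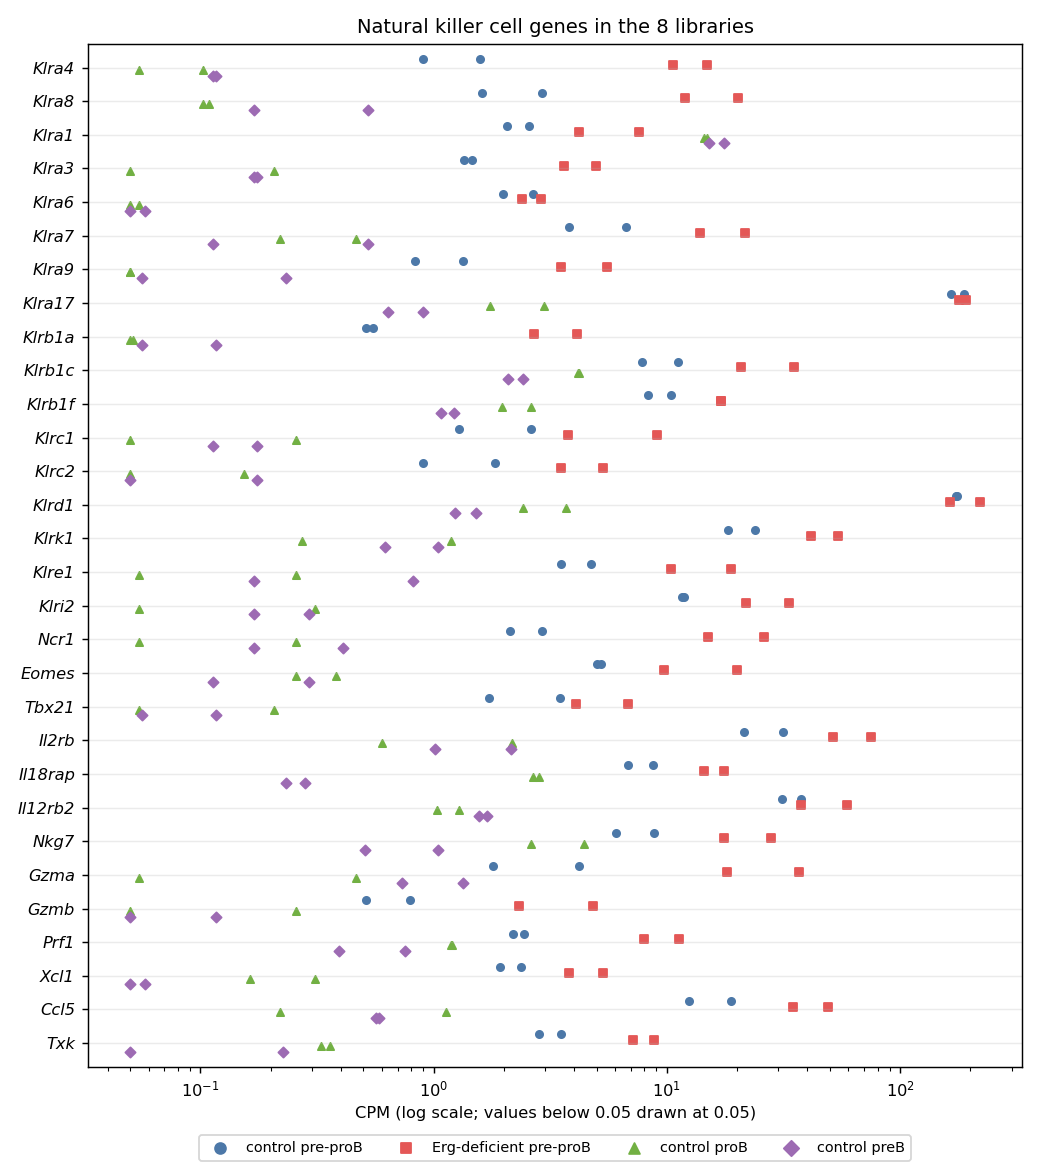
CPM on a log scale of the 30 members with a mean of at least 1 CPM over the 8 libraries, 1 point per library and 1 colour per group, with values under 0.05 CPM drawn at 0.05. Klra17 and Klrd1 lie above 160 CPM in all 4 pre-proB libraries, and Klra1 is the gene whose proB and preB points lie to the right of the pre-proB points.

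The stage comparison among the Erg fl/fl cells set the levels of NK genes in the sorted populations side by side. In these bulk samples a change within developing B cells and a change in the other cells within the gate cannot be told apart. The control pre-proB libraries of this comparison are the ones the choice of members also used. Of the 38 members 30 passed the filter in the 6 control libraries, and 17 of these reached 0.5 CPM in fewer than 2 proB or preB libraries, so that they could only pass through pre-proB cells. These had to be lower in proB and preB cells, and no p-value is given for their falls. From pre-proB to proB cells edgeR called 28 members lower and 1 higher, where 36.8% of all 13650 genes were called lower and 36.2% higher. Because of the filter and the shared libraries, nothing is read from the members' count beside these shares. Without control pre-proB replicate 1 the filter kept 16 members, of which 15 were called lower, and without control pre-proB replicate 2 it kept 16, of which 13 were called lower. Klra1 was the member called higher each time.

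The falls were large for the 2 abundant members. Klra17 fell to 1.75 and 2.98 CPM in proB libraries, a log2 change of -6.17 ± 0.16 (adjusted p = 1.17e-08), and Klrd1 to 2.40 and 3.70 CPM, a log2 change of -5.79 ± 0.13 (adjusted p = 6.03e-09). These changes went with those of the plasmacytoid dendritic-like list. All 12 of its genes were called lower in proB than pre-proB cells, where 36.8% of all genes were called lower. Its sum fell to 1155 and 1099 CPM, of which the listed gene Spib held 796 and 706 CPM. Siglech fell to 46.5 and 56.5 CPM. The part of plasmacytoid dendritic cells in the level of Klra17 and Klrd1 was not tested.

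Of the members that also reached the filter in proB or preB cells, Klrk1 fell to 0.273 and 1.18 CPM, a log2 change of -4.78 ± 0.41 (adjusted p = 8.96e-06). Il2rb fell to 0.601 and 2.16 CPM, a log2 change of -4.20 ± 0.44 (adjusted p = 3.07e-05), and Il12rb2 to 1.04 and 1.29 CPM, a log2 change of -4.84 ± 0.18 (adjusted p = 6.88e-08). Ccl5 fell to 0.218 and 1.13 CPM, a log2 change of -4.46 ± 0.45 (adjusted p = 2.68e-05). In all of these the proB libraries lay below both pre-proB libraries. Klri2, at 0.0546 and 0.309 CPM in proB cells, and Eomes, at 0.382 and 0.257 CPM, passed through pre-proB cells alone and are given as values.

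Smaller falls were seen for members that kept RNA in proB cells. Klrb1c fell by 1.14 ± 0.21 on the log2 scale (adjusted p = 0.00114) and Klrb1f fell to 2.62 and 1.95 CPM in proB libraries (adjusted p = 5.5e-05). Il18rap stood at 2.84 and 2.67 CPM in proB libraries and fell by 1.46 ± 0.21 (adjusted p = 0.00028). Nkg7, at 2.62 and 4.42 CPM, fell by 1.04 ± 0.33 (adjusted p = 0.0191), and Prf1, at 1.20 and 1.18 CPM, a log2 change of -0.91 ± 0.31 (adjusted p = 0.0251). The call for Nkg7 was lost without control pre-proB replicate 2 or proB replicate 1, and that for Prf1 by DESeq2 and without any 1 of control pre-proB replicate 2, proB replicate 1 and proB replicate 2.

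Several Ly49 and NKG2 genes were at the limit of detection after the pre-proB stage. Those named here passed through pre-proB cells alone, so that a fall was fixed by the filter, and only their counts are given. Klra6 had 75 counts over both control pre-proB libraries and 1 over both proB libraries. Klra4 had 40 and 3, Klrc2 had 44 and 3, and Klra9 had 35 and 0.

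The step from proB to preB cells compared 2 groups that had not served to choose the members, though the control pre-proB libraries entered its filter and its estimate of the spread. Here 8 of the 30 members were called lower and 0 higher, where 29.9% of all genes were called lower and 29.0% higher, and the 17 members that passed through pre-proB cells alone had few counts in either group, so these shares are not compared. Without either control pre-proB library 16 members were tested, of which 7 were called lower and 1 higher. At an unadjusted p below 0.05 by edgeR there were 10 members, and 8658 of all 13650 genes. DESeq2 called 6 members lower, and limma-voom 8 lower and 1 higher, where they called 6881 and 8066 of all genes in either direction. Il18rap fell to 0.233 and 0.282 CPM, a log2 change of -3.38 ± 0.33 (adjusted p = 6.34e-05), and Nkg7 to 1.05 and 0.507 CPM, a log2 change of -2.17 ± 0.42 (adjusted p = 0.00238). For both, the preB libraries lay below both proB libraries. Klra17 fell to 0.639 and 0.901 CPM, a log2 change of -1.61 ± 0.36 (adjusted p = 0.00474), and Klrd1 to 1.51 and 1.24 CPM, a log2 change of -1.15 ± 0.25 (adjusted p = 0.00395).

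Klrb1c fell by 0.88 ± 0.24 on the log2 scale (adjusted p = 0.0119) and Klrb1f, to 1.22 and 1.07 CPM, a log2 change of -0.98 ± 0.28 (adjusted p = 0.0148). Prf1 fell to 0.756 and 0.394 CPM, a log2 change of -1.04 ± 0.37 (adjusted p = 0.04). Xcl1 had 9 counts over both proB and 1 over both preB libraries, a ratio of 8.33 (1.15 to 365). This interval covers counting noise alone, and the replicates differed by more than that. The calls for Prf1 and Xcl1 were lost by DESeq2 and without either proB replicate 2 or preB replicate 2, that for Prf1 also without proB replicate 1 and that for Xcl1 also by the version 4 method of edgeR. The call for Klrb1c was lost without preB replicate 1, and that for Klrb1f without proB replicate 1 or preB replicate 2. Gzma stood at 0.0546 and 0.463 CPM in proB and 1.34 and 0.732 CPM in preB libraries (1.94 ± 0.79, adjusted p = 0.0626), with both preB libraries above both proB libraries. It was called higher without proB replicate 2 and without either control pre-proB library.

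**Figure D3:**
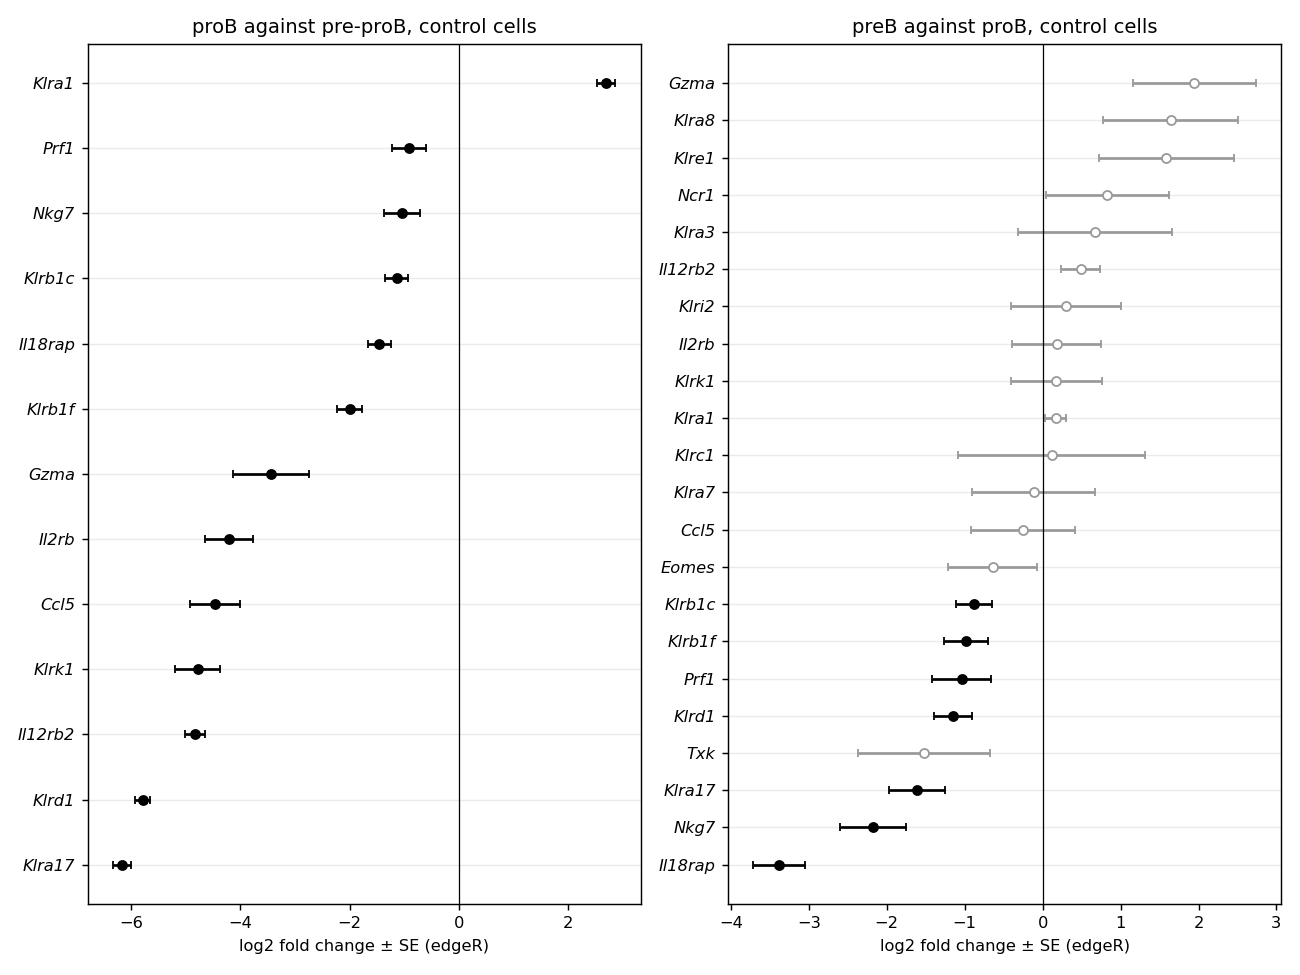
Log2 fold change with its SE from edgeR for proB against pre-proB cells (left) and preB against proB cells (right) in Erg fl/fl mice, for members with over 3 counts in each group, and on the left for the 13 that reached 0.5 CPM in at least 2 proB or preB libraries; filled points have an adjusted p below 0.05. On the left Klra1 is the point to the right of 0 at 2.69, and on the right the 7 filled points lie between -3.38 and -0.88.

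Between preB and pre-proB cells 29 members were called lower and Klra1 higher (2.86 ± 0.17 on the log2 scale, adjusted p = 8.68e-07), where 34.1% of all genes were called lower and 36.5% higher, and again nothing is read from the members' count, since the same 17 passed through pre-proB cells alone. Without control pre-proB replicate 1 the counts were 15 lower of 16 kept, and without control pre-proB replicate 2 they were 14 of 16. Klri1, which was not tested between stages, had 12 counts over both control pre-proB libraries and 0 over both preB libraries. With a floor of 3 counts put in place of 0 the ratio was 4.36, which is not a lower confidence limit. The call for Gzma (-1.497 ± 0.56, adjusted p = 0.0394) was lost by DESeq2, by limma-voom, with all 8 libraries in one fit and without control pre-proB replicate 2, preB replicate 1 or preB replicate 2.

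The genes through which NK receptors signal were taken as lists. Of 22 adaptors and kinases 0 were called between genotypes by edgeR, where 1.16% of all genes were called in either direction. That share also stands beside the genotype counts of the following lists. From pre-proB to proB cells 13 of the adaptors and kinases fell and 6 rose, where 36.8% of all genes were called lower and 36.2% higher. These shares also stand beside the stage counts of the following lists. In these lists too, some genes could pass the filter only through pre-proB cells, so nothing is read from the stage counts. Tyrobp, which encodes DAP12, the adaptor of activating Ly49 receptors, stood at 944 and 1039 CPM in control and 1106 and 1252 CPM in Erg-deficient pre-proB libraries and fell by 5.61 ± 0.19 on the log2 scale to proB cells (adjusted p = 3.8e-08). Fcer1g, the adaptor chain of NKp46, stood at 213 and 250 CPM against 265 and 266 CPM, and Hcst, which encodes the NKG2D adaptor DAP10, at 9.50 and 10.1 CPM against 9.31 and 12.8 CPM. Zap70, a kinase recruited by ITAM-bearing adaptors such as DAP12, rose from 7.06 and 5.53 CPM in pre-proB to 18.9 and 17.8 CPM in proB cells, a log2 change of 1.58 ± 0.16 (adjusted p = 2.2e-05).

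Of 16 ligands of NK receptors 11 were tested between genotypes and 0 called, and from pre-proB to proB cells 8 fell and 4 rose of 12 tested. H2-T23, which encodes Qa-1, fell by 2.54 ± 0.12 on the log2 scale (adjusted p = 2e-07), from 567 and 663 to 102 and 104 CPM, and Clec2i, which encodes a Clr protein, a log2 change of -2.02 ± 0.12 (adjusted p = 1.1e-06). Ulbp1, a ligand of NKG2D, stood at 11.2 and 11.7 CPM in pre-proB and 31.5 and 28.3 CPM in proB cells and was among the 4 that rose.

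In the list of 15 cytokine signalling genes Il18r1, the partner chain of Il18rap, was the 1 gene called between genotypes, and stood at 10.7 and 14.9 CPM in control and 29.1 and 31.0 CPM in Erg-deficient libraries. Il2rg, the common cytokine receptor chain that pairs with the product of Il2rb, stood at 78.4 and 80.9 CPM against 122 and 82.1 CPM, and Il7r at 414 and 416 CPM against 436 and 472 CPM. From pre-proB to proB cells 8 of the 15 fell and 3 rose. Of the 21 listed NK and innate lymphoid factors 20 were tested between genotypes and 0 called. Id2, an inhibitor of E proteins, stood at 11.9 and 15.4 CPM in control and 19.7 and 31.5 CPM in Erg-deficient libraries, Nfil3, a factor needed early in NK development, at 6.80 and 9.66 CPM against 11.4 and 12.3 CPM, and Gata3 at 0.578 and 0.729 CPM against 2.06 and 2.78 CPM.

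From pre-proB to proB cells 11 of the 19 factors tested fell and 6 rose. Runx3 fell by 1.28 ± 0.10 on the log2 scale (adjusted p = 5.1e-06), Nfil3 by 3.03 ± 0.31 (adjusted p = 2.9e-05) and Tcf7 by 1.01 ± 0.12 (adjusted p = 8.4e-05), while Ets1 rose by 0.86 ± 0.10 (adjusted p = 4.8e-05). Of 18 other NK surface receptors 16 were tested, 10 fell and 3 rose, where 36.8% of all genes were called lower and 36.2% higher, among them Cd7, from 556 and 585 to 6.88 and 7.61 CPM. Of the 20 other granule, cytokine and chemokine genes 16 were tested, 10 fell and 1 rose, and of the 10 trafficking receptors 9 were tested, 6 fell and 3 rose. None of the genes tested in these last 3 lists was called between genotypes. Itga2, an integrin of mature NK cells, stood at 0.321 and 0.972 CPM in control and 2.75 and 4.45 CPM in Erg-deficient pre-proB libraries, and Zbtb16 at or below 0.646 CPM in every library.

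Lists of other cells that carry some of the same genes were read beside these values. The T-like list of 12 markers summed to 741 and 900 CPM in control and 1593 and 915 CPM in Erg-deficient pre-proB libraries, most of it from Cd4, which stood at 1214 CPM in Erg-deficient replicate 1 and at 474 to 623 CPM in the other 3. Cd3e was at 4.94 and 6.50 CPM in control and 5.00 and 4.84 CPM in Erg-deficient libraries. The innate lymphoid-like list of 12 summed to 89.1 and 98.7 CPM against 121 and 99.2 CPM, and in each genotype 5 of its genes had no count in either library. The myeloid-like list summed to 261 and 215 CPM in control and 166 and 145 CPM in Erg-deficient libraries, and the plasma cell-like list to 751 and 798 against 677 and 785 CPM. The T-like list had 0 of 11 tested genes called between genotypes and the plasmacytoid dendritic-like list 0 of 12. The innate lymphoid-like list had 0 of 6 tested genes called and the plasma cell-like list 0 of 6. The myeloid-like one had 2 of 11 tested called lower and the B-like one 8 of 12, where 0.946% of all genes were called lower. The part of any of these cells in the levels of NK genes was not tested.

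**Figure D4:**
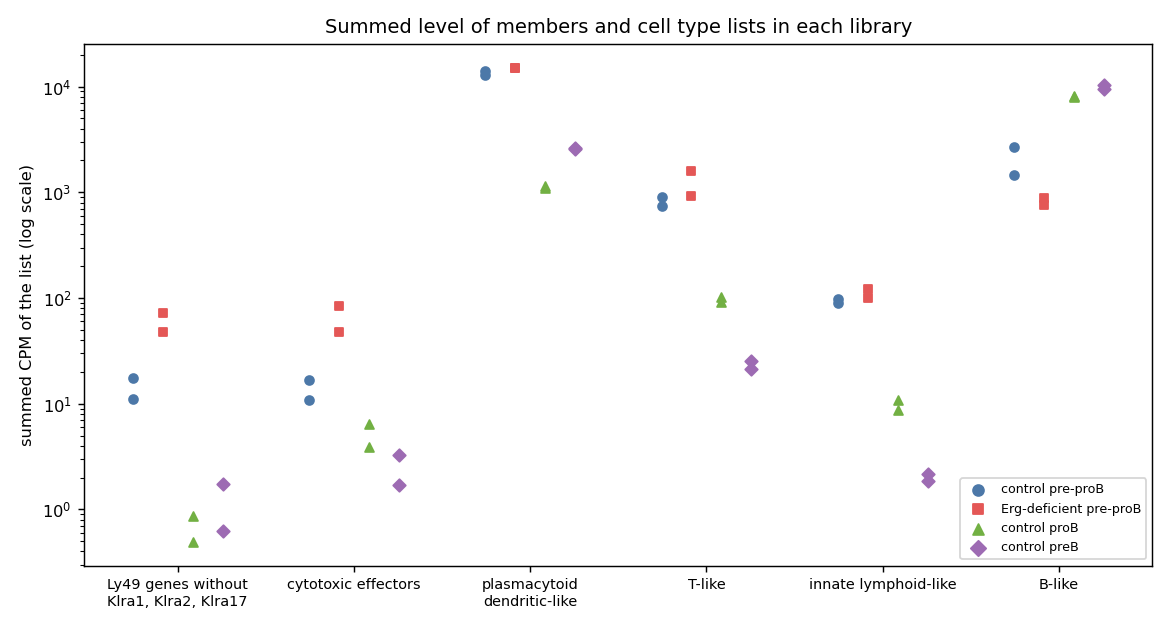
Summed CPM on a log scale in each of the 8 libraries for 8 Ly49 genes, the 5 cytotoxic effectors and 4 lists of cell type markers, with 1 point per library and 1 colour per group. The Ly49 and effector sums of the Erg-deficient libraries lie above both control pre-proB libraries, the plasmacytoid dendritic-like sums lie between 12938 and 15077 in all 4 pre-proB libraries, and the B-like sums of the Erg-deficient libraries lie below all others.

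Within the stretch of chromosome 6 that holds the 23 Klr members, 28 further genes of the table lie, and 18 of them were tested between genotypes. The 2 called were pseudogenes of the Ly49 family, both higher in Erg-deficient cells, where 0.215% of all genes were called higher. Klra13-ps stood at 2.1 and 3.4 CPM in control and 14.4 and 26.7 CPM in Erg-deficient libraries, and Klra14-ps at 0.3 and 0.3 CPM against 3.7 and 6.1 CPM. Of the transcript windows of Klra8 13.7% were shared with Klra14-ps, and of those of Klra7 1.83% with Klra13-ps. The counts of the pseudogenes may thus include reads of members, which were chosen on this contrast, so nothing is read from these 2 calls. The abundant neighbours Clec12a and Clec9a, known from dendritic cells, stood at 391 and 385 CPM and at 232 and 238 CPM in control and at 419 and 452 CPM and at 277 and 211 CPM in Erg-deficient libraries. From pre-proB to proB cells 12 of 16 such neighbours tested were called lower and 1, Klrb1, higher, where 36.8% of all genes were called lower and 36.2% higher. Some of these neighbours could pass the filter only through pre-proB cells. Their fall was fixed by the filter, so nothing is read from this count.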

How the data were processed

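Total RNA from 8 sorted bone marrow libraries was sequenced as paired reads. The deposited table holds whole-number counts per Entrez gene. As the study's methods and the submitters' processing notes state, the authors trimmed reads with Trim Galore, used STAR for alignment to mm10 and featureCounts for counting; neither strand nor multi-mapping settings are stated, so near-identical or antisense genes may share reads. Of 27179 identifiers 25275 had a RefSeq symbol. Libraries were grouped by their labels. The replicates differed by more than counting noise.

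The members and lists were chosen with earlier results of these data known. A member was given in every library when its mean was at least 1 CPM over the 8 libraries, which 30 met, and otherwise by counts and ranges. From each list the called genes with the lowest p (at most 3 per direction) and preset genes were eligible to be named; a preset gene is not reported here. Clec12a, Clec9a, Klra13-ps, Klra14-ps, Klrb1, Cd4 and the 8 promoter motifs were chosen after values were seen.

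Tests used edgeR 4.0.16 in R 4.3.3 (TMM, legacy quasi-likelihood, Benjamini-Hochberg over all genes, adjusted p below 0.05), after a filter of 0.5 CPM in 2 libraries, in fits of the 4 pre-proB and of the 6 Erg fl/fl libraries. The SE was derived from the F statistic as |log2 fold change| / √F. FPKM is CPM per kilobase of joined GENCODE exons. Counting intervals are Clopper-Pearson at 95% on counts pooled over the 2 libraries of a group and leave out the spread between replicates. The fits were tested on simulated data. Alternatives were other size factors, filters, DESeq2 1.42.0, limma-voom (limma 3.58.1), the version 4 method, all 8 libraries in one fit, a block for replicate number, and omission of each library. Shared windows are 100-base stretches of transcripts found in another gene. Figures were drawn with matplotlib. A planned comparison of member proteins was not made, since no protein sequences were used here.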

Additional observations from a re-analysis of the deposited data

How the results depend on the processing

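With 2 libraries per group, the p-values rest on few degrees of freedom, and members with few counts could not be resolved after the pre-proB stage. A fit that omits a library takes the spread of its partner from the remaining groups. Members called between genotypes numbered 10 by the settings reported, 21 with no filter, 22 by DESeq2, 1 by limma-voom, 6 by the version 4 method of edgeR, 20 with all 8 libraries in one fit, 20 with the replicate number as a block, and between 0 and 21 with a library left out. For all genes these numbers were 151, 279, 400, 41, 88, 442, 265 with the replicate block, and 10 to 401. The cause was not tested. Between proB and pre-proB cells 29 members were called, 14 to 29 with a library left out, and between preB and pre-proB cells 30, with 15 to 30, where fewer members passed the filter without a control pre-proB library. Between preB and proB cells 8 were called, 6 to 8 with a library left out and 6 with the replicate block. Same-numbered libraries of 2 groups correlated in their deviations at -0.032 to 0.118, so the numbers are not shown to pair the libraries.

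Of 387 refitted log2 fold changes of the members in each stage comparison, 378 (proB against pre-proB), 349 (preB against proB) and 376 (preB against pre-proB) kept direction and side of the threshold. Those that changed direction were 19 values of 11 members between preB and proB cells, none of which was called. With a library left out these ranged from -0.25 to 4.61 for Klra3, from -2.24 to 2.32 for Klra6, from -1.54 to 0.56 for Klra7, from -0.82 to 4.36 for Klrc1, from -3.61 to 3.67 for Klrc2, from -0.51 to 1.57 for Klrk1, from -0.42 to 1.93 for Klri2, from -1.20 to 0.58 for Tbx21, from -0.46 to 1.37 for Il2rb, from -4.30 to 3.14 for Gzmb and from -0.98 to 1.35 for Ccl5, which was 0.16 by limma-voom. The block also ended the calls of Prf1 and Xcl1 between preB and proB cells and of Gzma between preB and pre-proB cells. Of the 360 refits of the genotype difference, 14 moved by more than the spread between replicates.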
